A study of Mus musculus with 7 samples.

Results

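The clustered replication-dependent histone genes are the genes that supply the bulk of the histone protein needed to package newly copied DNA. They were chosen here by symbol alone, as every gene named Hist1h, Hist2h, Hist3h or Hist4h followed by a core or linker class. That rule found 67 of the 32285 genes in the count tables: 6 of class H1 (linker histones), 18 of H2A, 18 of H2B, 12 of H3 and 13 of H4. The cells were sorted from bone marrow as LSK cells, the lineage-negative, Sca-1+, c-Kit+ fraction that holds stem cells and early multipotent progenitors, and each library was sequenced as single cells. There were 7 libraries. The 3 labelled B4galt1 KO carry the genotype label 129S1/C57Bl/6, B4-/- and are called KO1, KO2 and KO3. The 4 labelled WT carry 129S1/C57Bl/6 and are called WT1 to WT4. The design text calls the knockout full, and both groups share the mixed strain background and no treatment is given in the labels. Ages and the number of mice behind a library are not given in the sources used here, so p-values measure only the spread between these libraries, which may be in part technical.

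Most messenger RNAs end in a poly(A) tail, and replication-dependent histone messages are the classic exception. Their 3′ end is cut a few bases after a conserved stem-loop, which is bound by Slbp, the stem-loop binding protein. Their transcription is driven in S phase through Npat, and the messages are degraded when DNA synthesis stops. Some of these genes can also run past the stem-loop to a downstream poly(A) signal, which is known from differentiating and resting cells. A 3′ kit that primes on poly(A), such as the Single Cell 3′ v2 kit named in the labels, captures molecules with an A-rich stretch, so the levels below count captured molecules and not total histone message. One molecular identifier (UMI) stands for one captured molecule. Levels are given as CPM, a gene's UMIs as a share of the UMIs of a summed library, scaled by edgeR's TMM method. No level was divided by gene length, and an order among genes is an order of captured UMIs.

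The genes lie in 5 places of GRCm38, the build also known as mm10. Chromosome 13 holds 54 of them in a pair of clusters, 23 genes within chr13:21715763-22043676 and 31 within chr13:23531050-23934851. Chromosome 3 holds 10 within chr3:96219865-96270132, chromosome 11 holds 2 within chr11:58948920-58956830, and Hist4h4 lies alone at chr6:136801553-136804415. In the longest coding transcript of each gene (GENCODE M21), 45 of 67 held the histone stem-loop consensus of 16 bases, against 22 of 21834 other protein-coding genes, which is 0.1%. The 45 stem-loops had 8 distinct sequences, and 1 of these, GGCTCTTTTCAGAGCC, was shared by 25 genes. What differed was how far the annotated transcript ran beyond it. In 22 genes it ended within 100 bases of the stem-loop, in 23 it ran further, in 11 the model held bases outside the coding part but no stem-loop, and in 11 it held coding bases only.

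The sites below were picked from genes with large and with small cell cycle differences, described further on, that carry nearly the same stem-loop. Hist1h2bc and Hist1h2af, the extremes of that difference, have no stem-loop in their model and could not be printed. The printed sites are thus examples and do not show how the difference went with the 3′ end over all members. The 16 bases of the stem-loop are in capitals, and each site is written 5′ to 3′ in the sense of the gene. The first 4 genes had large differences between cycling and non-cycling cells.
Hist1h3c, chr13:23745042-23745067, minus strand, model ending 74 bases after the stem-loop: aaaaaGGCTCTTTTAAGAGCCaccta
Hist1h3b, chr13:23752815-23752840, plus strand, ending 51 bases after it: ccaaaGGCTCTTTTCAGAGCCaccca
Hist1h3g, chr13:23535884-23535909, plus strand, ending 47 bases after it: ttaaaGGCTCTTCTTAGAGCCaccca
Hist1h2ap, chr13:21833026-21833049, minus strand, ending 3 bases after it: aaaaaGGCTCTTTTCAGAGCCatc
The next 4 genes had small differences.
Hist3h2a, chr11:58955167-58955192, plus strand, ending 1643 bases after it: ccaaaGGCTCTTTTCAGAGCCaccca
Hist1h1c, chr13:23739507-23739532, plus strand, ending 840 bases after it: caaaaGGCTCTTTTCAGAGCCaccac
Hist1h2ac, chr13:23683472-23683497, minus strand, ending 2010 bases after it: ccaaaGGCTCTTTTCAGAGCCcccac
Hist4h4, chr6:136803993-136804018, minus strand, ending 2445 bases after it: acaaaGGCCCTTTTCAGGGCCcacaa
Hist1h3b and Hist3h2a have the same 26 bases at this site, and their models end 51 and 1643 bases after the stem-loop. Hist1h3b had at most 3 UMIs in all non-cycling cells, so the size of its difference depends on the prior count of the fit.

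Promoters of 62 of the 67 genes were matched in a RefSeq table of GRCm38.p6, and 4 short motifs were searched on both strands in the 250 bases before the start. CCAAT, the NF-Y box, stood in 82.3% of them and in 34.35% of the promoters of other genes. It was present in all 6 H1, all 18 H2A and all 16 H2B promoters, in 8 of 10 H3 promoters and in 3 of 12 H4 promoters. TATAAA, an exact form of the TATA box, stood in 46.8% of the histone promoters and 12.89% of others. ATTTGCAT, the octamer bound by POU factors, stood in 7 of 18 H2A and 6 of 16 H2B promoters, in no H1, H3 or H4 promoter, and in 1.57% of other genes. AAACACA, the H1 box, stood in 5 of 6 H1, 2 of 18 H2A and 2 of 16 H2B promoters, in no H3 or H4 promoter, and in 6.2% of other genes. H2A and H2B genes often face away from each other, and the windows of 10 H2A and 10 H2B genes overlapped, so these share motifs. A match is a description of the letters in the window and not of a bound site. The promoters of a pair of H1 genes are printed because their message behaved differently across the cell cycle, Hist1h1b with a large difference and Hist1h1c with a small one, with the 4 motifs in capitals on either strand.
Hist1h1b, chr13:21780626-21780875, minus strand: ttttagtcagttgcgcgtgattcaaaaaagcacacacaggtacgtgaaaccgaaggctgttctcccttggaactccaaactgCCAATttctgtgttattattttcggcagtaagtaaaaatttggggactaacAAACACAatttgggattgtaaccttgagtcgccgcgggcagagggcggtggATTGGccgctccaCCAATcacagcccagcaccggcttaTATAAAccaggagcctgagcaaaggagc
Hist1h1c, chr13:23738557-23738806, plus strand: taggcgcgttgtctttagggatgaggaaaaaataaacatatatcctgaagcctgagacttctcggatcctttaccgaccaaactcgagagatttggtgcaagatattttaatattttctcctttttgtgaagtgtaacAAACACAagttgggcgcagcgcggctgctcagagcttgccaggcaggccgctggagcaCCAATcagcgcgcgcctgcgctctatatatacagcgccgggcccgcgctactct
Both windows hold the H1 box and CCAAT, and TATAAA was found in that of Hist1h1b and not in that of Hist1h1c. Only the exact letters TATAAA were searched, and the Hist1h1c window holds tatatata near its end. The absence of TATAAA there does not show that a TATA box is lacking.

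Cells with at least 1000 UMIs, 500 genes and at most 10% mitochondrial UMIs were kept, 1172 to 8862 per library, with a median depth of 8046 to 11083 UMIs. The libraries fell into 2 sets by the opening bases of their cell barcodes. KO1, KO2 and WT1 to WT3 (list A) shared 1 barcode list, and KO3 and WT4 (list B) shared another. Of the barcodes in the count tables, 98.3% were kept in KO3 and 96.2% in WT4, against 32.4% to 49.9% in list A. The labels name 1 kit for all 7 libraries, and whether both lists belong to that kit version is not given in the sources used here. KO3 and WT4 also shared 68 barcodes among kept cells, and no other pair shared more than 2. B4galt1 stood at 53.0, 53.1 and 31.3 CPM in KO1 to KO3 and at 53.9, 61.3, 52.7 and 39.2 in WT1 to WT4, so the label groups overlapped. Which bases the knockout removes is not given in the sources used here, and 3′ UMIs outside them would check nothing, so each library is called by its label. Kit (156 to 288 CPM) and Ly6a, which encodes Sca-1 (14.8 to 55.0), were found in all 7 libraries. Markers of other progenitors moved with the label. All 6 granulocyte-monocyte markers had a higher mean in the KO-labelled libraries, where their summed level was 2845 to 11260 CPM, against 675 to 1923 CPM in the WT-labelled ones. Of 9 stem cell markers 7 had a lower mean in the KO-labelled libraries (502 to 914 CPM summed, against 794 to 1568), and so had all 8 lymphoid markers (137 to 433 CPM, against 426 to 560). Of 6 monocyte and dendritic cell markers 5 had a higher mean in the KO-labelled libraries (307 to 1022 CPM summed, against 146 to 293, with no overlap). All 6 basophil and mast cell markers (28.4 to 181 CPM, against 15.1 to 120) and 8 of 9 megakaryocyte markers (46.4 to 619, against 39.8 to 214) had a higher mean there, with overlapping sums. Of 9 erythroid markers 7 (7.3 to 77.9 CPM, against 7.3 to 336) and of 6 T and NK cell markers 5 (77.0 to 247, against 59.4 to 259) had a lower mean, also with overlapping sums. No marker of these lists was at 0 in every library.

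Summed over all kept cells of a library, the 67 genes together made up 1125 to 2221 CPM. H1 and H2A were the classes with the most captured UMIs, with means of 461 and 478 CPM over the 7 libraries, followed by H2B with 261, H4 with 215 and H3 with 144. Hist1h2ap (H2A), Hist1h1b and Hist1h1e (H1), and Hist1h2bc (H2B) led the single genes. Hist1h2ap had a lowest value of 53.7, a median of 117 and a highest value of 345, and its 2 highest libraries were the list B libraries KO3 and WT4. Hist1h1b ran from 65.8 through a median of 135 to 309 and had its 2 lowest values in the list B libraries. Hist1h2bc ran from 94.0 through 99.8 to 130, with its highest value in KO1. At the other end, 5 genes did not pass the filter on low counts: Hist1h1t, Hist1h2aa and Hist1h2ba, which are known from germ cells, with Hist2h2aa2 and Hist1h2bq. None of the 5 reached 1 CPM in any library. Hist2h2aa2 has a near-identical copy, Hist2h2aa1, with no 90-base window of its own near its 3′ end. In 24 of the 67 genes fewer than 50% of such windows were unique among the 67, Hist1h2ap with 7.6% among them, and how the counting split reads between such copies is not given in the sources used here.

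**Figure D1:**
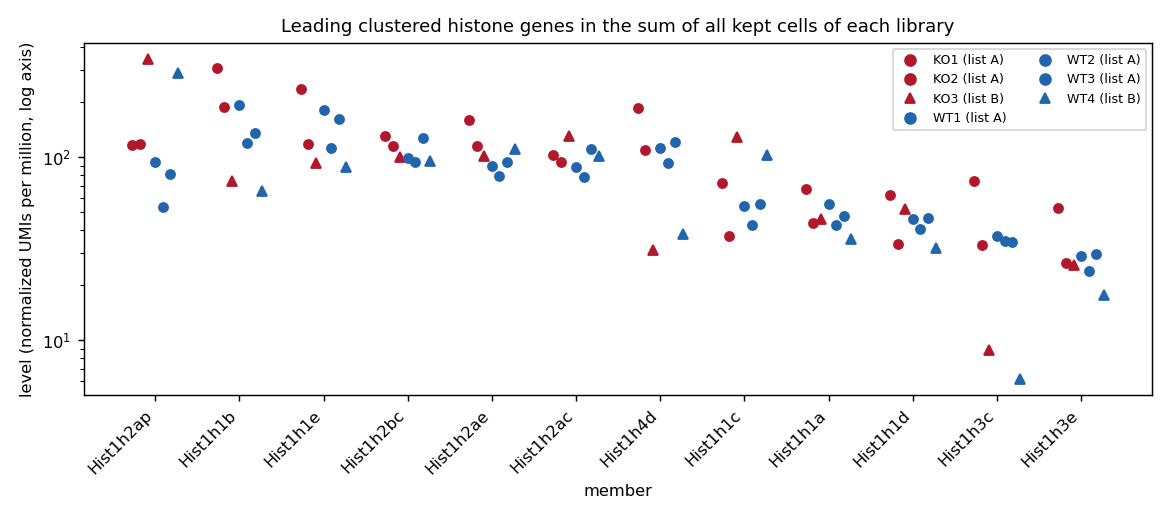
Level of the 12 clustered histone genes with the highest mean CPM in the sum of all kept cells, on a log axis, with 1 point per library. Red points are KO-labelled and blue points WT-labelled libraries, circles are list A and triangles list B. Hist1h2ap and Hist1h1c were highest, and Hist1h1b, Hist1h4d and Hist1h3c lowest, in the 2 list B libraries.

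Cell cycle gates were read from each cell thinned to 3000 UMIs, from 39 S phase genes and 42 G2/M genes, none of them a clustered histone gene. S-gated cells had at least 5 S list UMIs and fewer than 5 G2/M list UMIs, G2/M-gated cells the reverse, and double-gated cells at least 5 of both. Non-cycling cells had at most 2 of both lists together. A gate is a range of counts and not a cell type, and 20.6% to 25.0% of cells had a count of 4 or 5 on at least 1 of the lists. The comparisons with double-gated cells were added after the first results had shown that the S gate did not hold the histone peak. Double-gated cells were deeper, with median depths of 12995 to 21162 UMIs against 4609 to 8529 in non-cycling cells, and levels in CPM are relative to each sum's own UMIs. Doublets were not removed, and the part of depth and doublets in the gate differences was not tested beyond the thinned counts below.

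The clustered histone genes together were highest in double-gated cells in all 7 libraries. Their summed level was 358 to 913 CPM in non-cycling cells with a median of 617, 351 to 794 with a median of 511 in S-gated cells, 1817 to 3206 with a median of 2827 in double-gated cells, and 1455 to 2664 with a median of 2049 in G2/M-gated cells. The ranges of double-gated and non-cycling cells did not overlap, and those of S-gated and non-cycling cells did. H1, H2A, H3 and H4 had their highest mean in double-gated cells (771, 854, 244 and 351 CPM). The H2B sum had its highest mean in G2/M-gated cells, 442 ± 79.2 against 366 ± 78.1 in double-gated cells (SD, n = 7). It was higher there in each library. Hist1h2bc alone had a mean of 220 CPM in G2/M-gated cells and was lower in double-gated cells. Of the H2B genes with at least 200 gated UMIs, 9 had their highest mean in double-gated and 7 in G2/M-gated cells. The H2B sum thus does not describe most H2B genes.

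**Figure D2:**
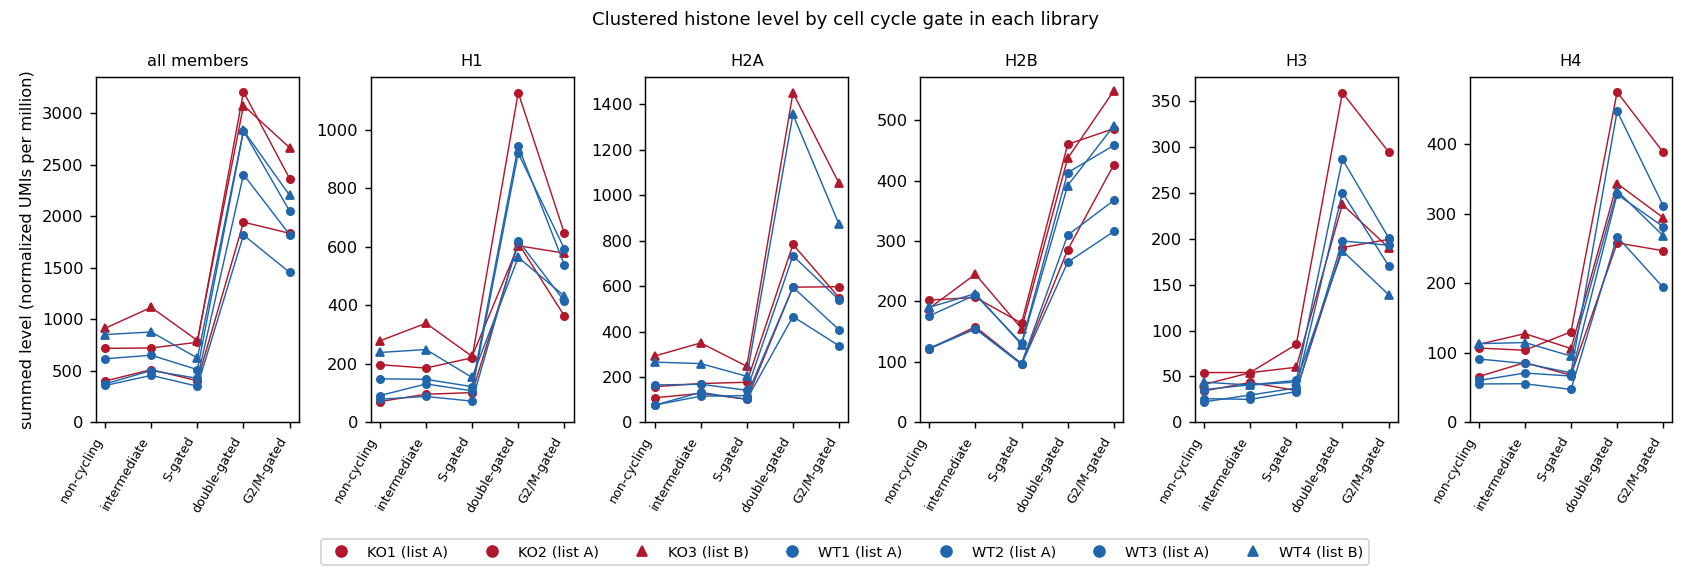
Summed level of all 67 genes and of each class, in CPM, in 5 cell cycle gates, with 1 line per library (red KO-labelled, blue WT-labelled, circles list A, triangles list B). All lines of all members peak in double-gated cells, between 1817 and 3206 CPM. The lines of the H2B sum peak in G2/M-gated cells, where Hist1h2bc alone had a mean of 220 CPM.

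The same was seen cell by cell at equal depth. Among cells with fewer than 2 G2/M list UMIs, the mean number of clustered histone UMIs of 3000 was 1.91 ± 0.475 at fewer than 2 S list UMIs and 1.40 ± 0.385 at 10 to 14 S list UMIs (SD over 7 libraries). At 10 to 14 S list UMIs and 20 or more G2/M list UMIs it was 10.3 ± 2.65. At 2 to 4 S list UMIs it was 2.01 ± 0.519 below 2 G2/M list UMIs and 6.60 ± 1.25 at 20 or more.

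**Figure D3:**
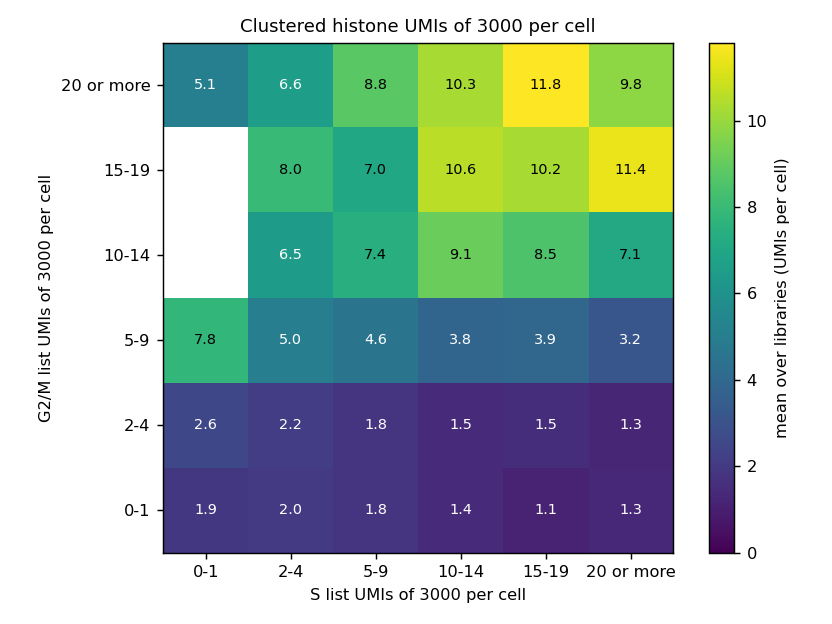
Mean number of clustered histone UMIs per cell thinned to 3000 UMIs, averaged over libraries with at least 20 cells in a square, by S list UMIs (horizontal) and G2/M list UMIs (vertical). White squares had no such library. The squares below 5 G2/M list UMIs lie between 1.11 and 2.57, and those at 10 or more G2/M list UMIs lie at 5.11 or above.

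Single genes were tested with edgeR's quasi-likelihood test on UMI sums per library and gate, with the library as a block and Benjamini-Hochberg adjustment over all genes tested. Between double-gated and non-cycling cells, 29.8% of all 14553 genes tested were higher. Of the 67 members 62 were tested and 60 of these were higher, but many passed the low-count filter through the double-gated cells alone. The 18 that also passed in non-cycling cells by themselves did not owe their test to the double-gated level, and 16 of those 18 were higher, with a median log2 fold change of 1.81, against 0.025 over all genes tested. Leaving out single libraries gave 57 to 60 calls among all members.

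The genes that differed most had few UMIs in non-cycling cells. Hist1h1b, a linker histone of dividing cells, ran from 1.84 through a median of 6.29 to 10.7 CPM in non-cycling cells and from 172 through 291 to 500 in double-gated cells. Its log2 fold change was 5.20 ± 0.188 (± is the SE for fold changes here and below, adjusted p = 6.89e-14). Hist1h3c, an H3 gene, had 10 UMIs in the non-cycling cells of all libraries together and 5846 in double-gated cells, where its level was 15.6 to 118 CPM with a median of 63.6. Its log2 fold change was 5.71 ± 0.312 (adjusted p = 2.24e-11). Hist1h2ap was at 5.53 to 37.1 in non-cycling and 98.0 to 835 in double-gated cells, with a log2 fold change of 4.32 ± 0.131 (adjusted p = 6.33e-20). None of these 3 genes had overlapping ranges. Hist1h2ap passed the low-count filter in non-cycling cells by themselves. Hist1h1b and Hist1h3c did not, so they owe their test, and its p-value, to the double-gated level. Hist1h2af, Hist1h2ah, Hist1h3b and Hist1h4k had at most 3 UMIs in all non-cycling cells, so their fitted fold changes depend on the prior count. Hist1h2af, for example, had 2 UMIs there and 1689 in double-gated cells.

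A smaller set of members was nearly as abundant in non-cycling cells. Hist1h2bc ran from 60.3 through 103 to 130 CPM in non-cycling cells and from 75.9 through 111 to 146 in double-gated cells, and the 2 ranges overlapped. Its log2 fold change of 0.16 ± 0.131 did not pass the test (adjusted p = 0.339), and neither did the 0.36 ± 0.271 of Hist1h1c, the linker gene for H1.2 (adjusted p = 0.311). Hist3h2a (0.35 ± 0.132, adjusted p = 0.0301), Hist1h2ac (0.51 ± 0.134, adjusted p = 0.00391) and Hist4h4 (0.66 ± 0.143, adjusted p = 0.000356) rose by less than any other called member. Hist3h2ba was called at 0.89 ± 0.308 (adjusted p = 0.0186), and its fold change was -0.80 in list A alone. Hist1h2bc, Hist1h2ac and Hist1h1c together with Hist1h1e and Hist1h4d made up a mean of 55.7% of all clustered histone UMIs of non-cycling cells (48.5% to 65.5% by library). In double-gated cells the 5 leading genes were Hist1h2ap, Hist1h1b, Hist1h1e, Hist1h2ae and Hist1h4d, with 47.9%. The leading genes thus differed between the gates.

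The counts of Hist1h1b against Hist1h2bc show this within each library. In non-cycling cells there were 0.0189 to 0.148 Hist1h1b UMIs for each Hist1h2bc UMI, and in double-gated cells 1.99 to 3.57. In all kept cells the ratio lay between 0.690 and 2.38. The lowest non-cycling ratio rests on 1 Hist1h1b UMI and 53 Hist1h2bc UMIs.

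The members were also set beside their annotated 3′ ends. Over the 52 tested members with at least 10 non-cycling UMIs, the median log2 fold change of double-gated over non-cycling cells was 1.79 in the 21 whose model ran more than 100 bases past the stem-loop and 2.76 in the 16 whose model ended within 100 bases of it. The ranges, 0.35 to 3.21 and 1.42 to 5.71, overlapped. The 8 with no stem-loop in the model had a median of 1.87, with a range of 0.16 to 5.20. The 7 with coding bases only had a median of 2.99, with a range of 2.19 to 3.86. Only 18 members passed the low-count filter in non-cycling cells by themselves, so many of the 52 were tested through their double-gated level. The medians therefore describe the fitted values only. No test was made over the members, and the models differ in length and sequence as well.

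**Figure D4:**
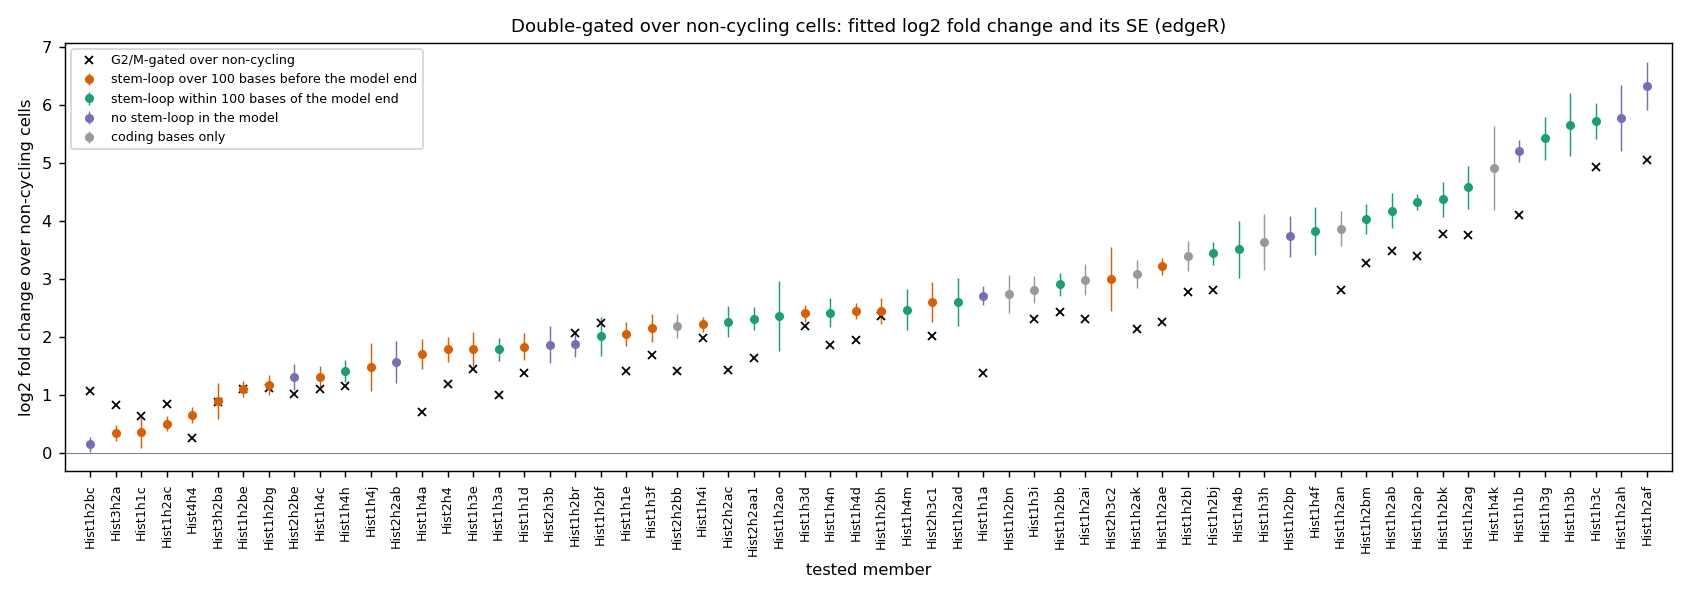
Fitted log2 fold change (edgeR) of double-gated over non-cycling cells for the 62 tested members, with its SE as a bar, coloured by the annotated 3′ end. Crosses give the G2/M-gated over non-cycling change where it was tested. Only 18 of the 62 passed the low-count filter in non-cycling cells by themselves. Values run from 0.16 for Hist1h2bc to 6.32 for Hist1h2af, and the genes whose model runs over 100 bases past the stem-loop reach no higher than 3.21.

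S-gated cells, which had fewer than 5 G2/M list UMIs, differed from non-cycling cells in both directions. Of 44 members tested 8 were higher, where 23.9% of 13322 genes were, and 9 were lower, where 19.7% were. The median log2 fold change was 0.09. Some of the 44 passed the low-count filter through the S-gated cells alone. Of the 18 that passed in non-cycling cells by themselves, 2 were higher and 7 lower, with a median log2 fold change of -0.18. Hist1h3c, Hist1h1b and Hist1h2bk, named next, were not among these 18. Hist1h3c (1.71 ± 0.515, adjusted p = 0.00653), Hist1h1b (1.40 ± 0.182, adjusted p = 2.02e-07) and Hist1h2bk, an H2B gene (1.11 ± 0.445, adjusted p = 0.0407), rose most. Hist3h2ba fell by 1.32 (SE 0.311, adjusted p = 0.000584), Hist3h2a by 0.93 (SE 0.122, adjusted p = 4.01e-08) and Hist1h1c by 0.87 (SE 0.095, adjusted p = 3.17e-09). Hist1h2bc was also lower, with a highest S-gated value of 88.4 CPM against 130 in non-cycling cells, although the ranges overlapped. The number of higher members depended on where the gate was set: 5 with a minimum of 4 list UMIs, 23 with a minimum of 8, and 25 with gates read at 2000 UMIs per cell. Without KO1 it was 5 and without KO3 4, and the number of lower members was 4 without KO3 and 5 without WT4. How the share of all genes called moved with these settings is not given here.

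From S-gated to double-gated cells all 62 tested members rose, where 23.9% of 14186 genes were higher, with log2 fold changes from 0.69 to 4.15. Some of the 62 passed the low-count filter through the double-gated cells alone. The 47 that passed in S-gated cells by themselves were all higher too, with a median log2 fold change of 2.12. Of 59 members tested between S-gated and G2/M-gated cells, 57 were higher in G2/M-gated cells, where 18.5% of 13001 genes were, and 45 of the same 47 were. G2/M-gated cells were above non-cycling cells in 44 of 46 tested members, where 22.5% of 10903 genes were higher, and the 2 that did not pass were Hist4h4 (0.26 ± 0.165, adjusted p = 0.221) and Hist1h4a (0.71, adjusted p = 0.117). Of the 18 that passed the filter in non-cycling cells by themselves, 17 were higher, with a median log2 fold change of 1.38.

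Double-gated and G2/M-gated cells differed in both directions. Of 62 tested members 32 were higher in double-gated cells (19.6% of 13867 genes were) and 4 were higher in G2/M-gated cells (17.1% were). Hist1h1a (1.17 ± 0.075, adjusted p = 8.87e-16), Hist1h1b (1.01 ± 0.059, adjusted p = 7.89e-13) and Hist1h2ap (0.78 ± 0.049, adjusted p = 9.29e-17) were among the 32. The 4 others were Hist1h2bc, Hist3h2a, Hist1h2ac and Hist1h2br. Hist1h2bc was at 174 to 249 CPM in G2/M-gated cells and 75.9 to 146 in double-gated cells, with no overlap, and its log2 fold change was -1.03 ± 0.155 (adjusted p = 0.00239). Without KO3, without WT4 or with list A alone, 2 members in place of 4 were higher in G2/M-gated cells. Of the 62 members with at least 200 gated UMIs, 50 had their highest mean level in double-gated cells and 12 in G2/M-gated cells. That gate was the highest in all 7 libraries for 21 of the 50 and for 2 of the 12. Hist3h2ba, 1 of the 12, was highest in G2/M-gated cells in 1 library only. Many of these assignments thus did not hold in each library, and the share over all genes is not given here. Of those 12, 7 were H2B genes and 9 had a model that runs over 100 bases past the stem-loop, and of the 50, 9 were H2B genes and 13 had such a model.

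Histone UMIs were also found in most non-cycling cells. At 3000 UMIs per cell, 60.9% to 78.7% of non-cycling cells had at least 1 clustered histone UMI, against 81.6% to 95.1% of double-gated cells. Without thinning these shares were 77.8% to 93.2% and 95.2% to 99.8%, so the share moved with depth. The share with 10 or more histone UMIs at 3000 was at most 4.32% in non-cycling cells and 21.5% to 42.4% in double-gated cells. The smallest non-cycling group held 63 cells.

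Genes that make, process or carry histones were described from lists that hold no member. Of all genes tested, 29.8% were higher in double-gated than in non-cycling cells, and the counts below stand beside that share. Replacement variants are histones of which many are made from polyadenylated messages and through the whole cell cycle. Neither need hold for each variant listed here. Of the 11, 9 were higher in double-gated than in non-cycling cells: H2afx (3.26 ± 0.115), Cenpa, the centromere variant (3.24 ± 0.116), and H2afz (2.56 ± 0.096) had the smallest p. H3f3b, which encodes H3.3, did not pass (0.12 ± 0.083, adjusted p = 0.23). Of 17 processing and control genes 14 were higher and 1 lower. Slbp was at 1.43 ± 0.26 (adjusted p = 0.00272) and Npat at 0.64 ± 0.111 (adjusted p = 2.48e-05), and the lower gene was Tut7, which adds uridines to histone messages that are being degraded (-0.56 ± 0.085, adjusted p = 4.51e-06). In G2/M-gated cells Slbp (-0.05 ± 0.11, adjusted p = 0.733) and Npat (-0.01 ± 0.125, adjusted p = 0.986) did not pass the test against non-cycling cells, while 17 of the 18 members that passed the filter in non-cycling cells by themselves were higher there. Of 16 chaperones, which escort histones to DNA, 15 were higher in double-gated cells, led by Asf1b (5.59 ± 0.242) and Chaf1a (3.69 ± 0.183).

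Lineage gates asked whether the histone level of cells in a like cell cycle class differed with the lineage markers they carried. A cell was lineage-gated with at least 3 UMIs of 1 marker list and more than of any other, and ungated cells were the base. Double-gated granulocyte-monocyte-gated cells carried 5.79 to 8.89 histone UMIs of 3000, stem-gated cells 4.92 to 9.63 and ungated cells 6.47 to 10.6. Granulocyte-monocyte-gated cells had 1 higher member of 59, Hist1h2bj (0.28 ± 0.099, adjusted p = 0.0441), where 14.6% of 11457 genes were higher, and 3 lower ones, Hist3h2ba, Hist3h2a and Hist1h1e, where 10.5% were. Lymphoid-gated cells had 2 higher members of 53, Hist1h4d (0.48 ± 0.086, adjusted p = 9.65e-05) and Hist1h1a (0.28 ± 0.085, adjusted p = 0.0178), where 7.9% of 10326 genes were higher. Leaving out 1 library gave 0 to 2 higher and 0 to 2 lower members for the granulocyte-monocyte gate (0 higher without WT1 or WT2, 0 lower without WT4), and 1 lymphoid call without WT2 or WT3.

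Stem-gated cells had the most calls, all of them lower. Of 55 tested members 13 were lower than in ungated double-gated cells, where 10.5% of 11168 genes were. Hist1h1b (-0.38 ± 0.06, adjusted p = 8.77e-06), Hist2h3c1 (-1.02 ± 0.212, adjusted p = 0.000429) and Hist1h3i (-0.59 ± 0.13, adjusted p = 0.000766) had the smallest p, and the median over the members was -0.26, against -0.01 over all genes. The mean of G2/M list UMIs was 16.1 in stem-gated and 16.2 in ungated double-gated cells, and that of S list UMIs 16.1 and 14.6. The number of calls ran from 6 with a stricter cell filter to 21 with a lineage minimum of 5 UMIs. Without KO3 or without WT3 it was 7. These counts stand without the share of all genes called in the same setting.

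In S-gated cells granulocyte-monocyte-gated cells were higher in 6 of 25 tested members, where 9.4% of 10137 genes were, with Hist1h2ap at 0.53 ± 0.102 (adjusted p = 0.000424). Stem-gated cells were lower in 6 of 32, where 11.5% of 11701 genes were, with Hist1h2ap at -0.58 ± 0.108 (adjusted p = 3.12e-05). Lymphoid-gated cells had none called of 21 by edgeR and none by DESeq2, where 13.9% of 9798 genes were called in either direction, and 3 members had an unadjusted p under 0.05, as had 23.4% of all genes tested. A minimum of 8 cell cycle list UMIs gave 15 granulocyte-monocyte calls and gates at 2000 UMIs gave 27. Without KO3 the stem-gated calls were 3. These alternative counts also stand without the share of all genes called. The lineage gates also differed in cell cycle counts within the S gate. Mean S list UMIs were 12.3 in granulocyte-monocyte-gated, 10.6 in stem-gated and 11.7 in ungated S-gated cells. Mean G2/M list UMIs were 2.17, 1.76 and 1.94 in the same order. The part of these counts in the histone calls was not tested.

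The study's design sets LSK cells of mice without B4galt1, a galactosyltransferase of glycoprotein chains, beside wild type. In the sums of all kept cells the clustered histone level was 2221, 1420 and 1729 CPM in KO1 to KO3 and 1468, 1125, 1465 and 1484 in WT1 to WT4. KO1 and KO3 lay above all 4 WT-labelled libraries and KO2 lay among them. In sums over all cells, more cycling cells and more histone RNA per cell cannot be told apart. With the barcode list as a covariate, edgeR called none of the 62 tested members, where 1.07% of 15149 genes were called in either direction. At an unadjusted p under 0.05 there were 23, where 18.9% of all genes tested were, and DESeq2 called 4, where it called 5.7% of all genes. The median log2 fold change of the members was 0.50, KO over WT label, against 0.009 over all genes, and 58 of 62 were above 0. The smallest adjusted p was 0.105, for Hist1h3f (0.67 ± 0.175). Without KO2 6 members were called, and without a low-count filter 3. The share of all genes called in those fits is not given here, so these counts cannot be set against it.

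Among the leading genes, Hist1h1b was at 309, 189 and 73.9 in KO1 to KO3 and at 192, 120, 135 and 65.8 in WT1 to WT4, so the groups overlapped. Its log2 fold change was 0.59 ± 0.228 (adjusted p = 0.213). Hist1h2ap was at 117, 118 and 345 against 94.3, 53.7, 80.9 and 290, with a log2 fold change of 0.53 ± 0.193 (adjusted p = 0.192). The groups of 3 tested members did not overlap, Hist2h2ac, Hist1h2bj and Hist1h4h, all higher in the KO-labelled libraries, and 2.59% of all genes tested did not overlap in that direction. Within list A the median over the 62 members was 0.53, and the ratio of KO3 to WT4 in list B, a single library each, had a median of 0.26. Both values were above 0 in 54 members. The members are not independent of each other.

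**Figure D5:**
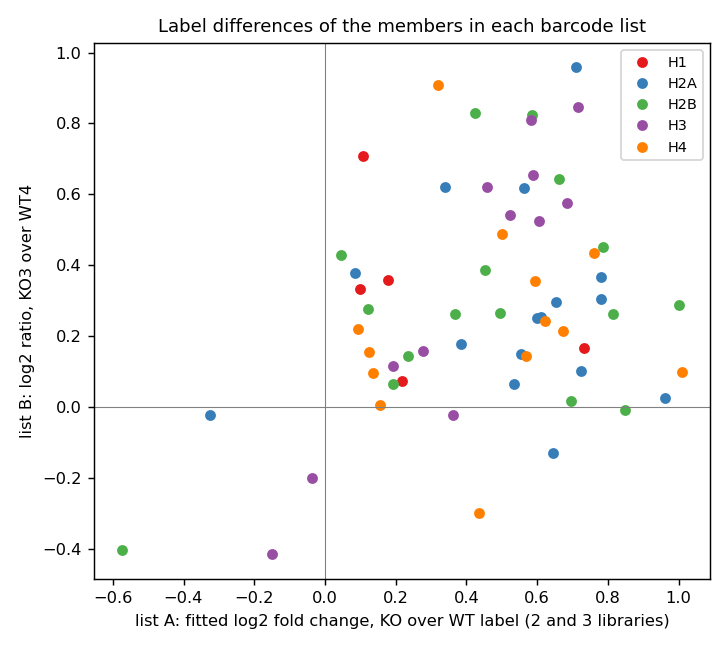
Difference between labels for the 62 tested members within list A (horizontal, fitted log2 fold change) and within list B (vertical, log2 ratio of KO3 over WT4), coloured by histone class. Most points, 54 of 62, lie above 0 on both axes, and none of the members was called in the fit over all 7 libraries.

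The share of cycling cells and the make-up of the libraries stood beside these values. Double-gated cells were 40.7%, 49.1% and 23.5% of gated cells in KO1 to KO3 and 37.4%, 38.5%, 26.7% and 21.2% in WT1 to WT4, a difference of 6.78 percentage points (two-sided exact permutation test over 35 splits, p = 0.457, adjusted over 2 gate shares 0.457). S-gated cells were 30.6% ± 2.23 (SD, n = 3) and 33.5% ± 2.41 (SD, n = 4) of gated cells (exact permutation p = 0.2, adjusted 0.4). Within list A the shares of double-gated cells differed by 10.6 points (exact permutation p = 0.2, where 0.1 is the smallest that 10 splits allow). The marker lists given above also moved with the label, and their part in the histone values was not tested.

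Label differences were also tested within gates. In double-gated cells edgeR and DESeq2 each called 0 of 62 tested members, where 1.01% of 13941 genes were called, 2 had an unadjusted p under 0.05 by edgeR, as had 19.1% of all genes, and the median was 0.23. In S-gated cells edgeR called 0 of 47, where 1.12% of 13028 genes were called, 9 had an unadjusted p under 0.05, as had 12.6% of all genes, and DESeq2 called 1, where it called 2.39% of all genes. The smallest p there was that of Hist1h1b (1.41 ± 0.354, adjusted p = 0.152). In non-cycling cells neither tool called any of 18, where 0.133% of 9773 genes were called, and 1 had an unadjusted p under 0.05 by edgeR, as had 3.52% of all genes. Whether the S-gated against non-cycling difference itself differed between labels was tested as an interaction, and neither tool called any of 44 members, where 0.143% of genes were called, and 1 had an unadjusted p under 0.05 by edgeR, as had 4.53% of all genes.

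The libraries also differed by barcode list, which is not a group of the study. What else sets KO3 and WT4 apart from the other libraries is not given in the sources used here. With the label as a covariate, 22 of 62 tested members were higher in list B, where 30.8% of 15149 genes were, and 16 were lower, where 30.7% were, so the members' shares were near those of all genes. Hist3h2ba, an H2B gene on chromosome 11, was at 10.1 and 13.3 CPM in KO3 and WT4 and at 0.886 to 2.25 in list A, a log2 fold change of 3.11 ± 0.262 (adjusted p = 2.93e-05). Hist1h4n (2.29 ± 0.286), Hist1h2bk (2.27 ± 0.268), Hist1h2an (2.24 ± 0.279) and Hist1h2ap (1.78 ± 0.2) were also higher. Hist1h3c was at 8.84 and 6.14 in KO3 and WT4 and at 33.4 to 74.5 in list A (-2.55 ± 0.288, adjusted p = 9.72e-05). Hist2h2bb (-2.35 ± 0.29), Hist1h3f (-2.19 ± 0.216), Hist1h4d (-1.82 ± 0.259) and Hist1h2ab (-1.67 ± 0.186) were lower too. For none of these 10 genes did the lists overlap. The genes were named for their small p in this same comparison, so the lack of overlap adds no support.

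The lists also differed within 1 gate. In double-gated cells 23 of 62 members were higher in list B, where 27.7% of 13941 genes were, and 12 lower, where 28.4% were. Hist3h2ba was at 3.59 ± 0.335 and Hist1h3c at -2.13 ± 0.318 there. In the sums of all cells both sides held genes with either kind of 3′ end. Of the 22 higher members there, 6 had a model running over 100 bases past the stem-loop and 9 one that ended within 100 bases. Of the 16 lower ones 9 and 3 had such models. The processing genes were also compared between the barcode lists in the sums of all cells, where 30.8% of all genes were higher and 30.7% lower. Of 17, 1 was higher (Lsm10, a subunit of the U7 particle that cuts histone messages, 1.33 ± 0.198). Another 8 were lower, Lsm11 of the same particle among them (-1.58 ± 0.198). In double-gated cells 2 of the 17 were higher and 6 lower, where 27.7% and 28.4% of all genes were. The share of ribosomal protein UMIs moved with the list too, at 30.0% and 30.2% in KO3 and WT4 and 13.7% to 20.8% in list A, and its part in these values was not tested. Without KO3 or without WT4, 10 members in place of 16 were lower in list B in the sums of all cells, and 7 or 5 in place of 12 in double-gated cells.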

How the data were processed

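Single-cell 3′ UMI counts of 7 libraries were used as deposited: whole-number counts per gene and barcode, which the authors made, per the submitters' processing notes, with Cell Ranger 7.0.0 against mm10 (Seurat 4.4.0 is also listed). The annotation used for counting is not given in the sources used here. The members, gene lists and gates were chosen with earlier results of these data known. Cells under 1000 UMIs or 500 genes or above 10% mitochondrial UMIs were left out. Doublets were not removed and no doublet caller was run. The double-gated comparisons and their alternatives were added after the data were seen. Cells were thinned to 3000 UMIs to read gates, 45 to 169 shallower cells per library were left out of them, and the tests used unthinned sums of at least 20 cells.

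Sums were tested with edgeR 4.0.16 (TMM, filterByExpr, quasi-likelihood, robust, Benjamini-Hochberg over all genes tested, threshold 0.05), and DESeq2 1.42.0 was an alternative. Label fits had the barcode list as a covariate, and gate fits the library as a block. Levels are TMM-normalized CPM. On simulated counts for the label fit, 200 changed genes per size were recovered to 89.5% at a log2 fold change of 1 and to 98% at 2. The simulation gave every gene the same dispersion and held no barcode list effect. Neither size was as small as the members' median label difference of 0.50, so these shares are not the power for the members. Named genes were the 12 highest levels, the 3 extremes of the S gate in each direction and the 5 smallest p per direction among members called in other comparisons, with the 3 smallest p per direction of the other lists, Slbp and Npat. Hist4h4, Hist1h4a, Hist1h3f, Hist1h3g, H3f3b, the 3 non-overlapping genes, the 5 untested genes and the genes with few non-cycling UMIs were named after their values were seen. Strand use in the counting is not stated. The tests were computed with R 4.3.3 and Python 3.11.15.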

Additional observations from a re-analysis of the deposited data

Results flagged for a closer look

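In groups of 4 libraries a value was picked out where its gap to the nearest of the others was a large share of the whole range (Dixon's criterion at 95%), which chance does in about 1 in 20 groups. Of 40 such groups among the WT-labelled libraries, 9 were picked out. In 7 genes the value apart was that of WT4, the only list B library with that label: Hist1h2an at 11.996, Hist1h2bk at 12.8, Hist1h2br at 16.1, Hist1h4n at 15.3 and Hist3h2ba at 13.3 CPM were high, and Hist1h2ak at 5.69 and Hist1h3c at 6.14 were low. KO3, the other list B library, lay on the same side in each of these 7 genes. The other 2 did not go with the list. Hist1h2bc was high in WT3, at 127 CPM against 94.0 to 99.1 in the other WT-labelled libraries. The summed level of all 67 genes was low in WT2, at 1125 against 1465 to 1484.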

How the results depend on the processing

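Alternatives kept the direction of all but 5 values of single members, and 1777 values also kept their side of the threshold while 86 lost and 8 gained a call. The 5 with a changed sign were Hist1h1e in S-gated against non-cycling cells, 0.181 with gates at 2000 UMIs, Hist3h2ba in double-gated against non-cycling cells, -0.796 in list A alone, and, in the label difference without KO1, Hist1h1e, Hist1h4d and Hist1h1c. Leaving out 1 library, these 3 ran from -0.188 to 0.441, -0.11 to 0.456 and -0.119 to 0.456. The causes were not tested. Member counts below stand without the share of all genes called in the same setting, unless that share is printed. They show only how the count of members moved.

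Numbers of members called in the label difference of all cells (0) were 4 with DESeq2, 3 with no gene filter and 0 to 6 leaving out 1 library. In S-gated cells (0) they were 1 with DESeq2, 7 with no gene filter, 1 in list A alone and 0 to 1 leaving out 1 library, and in double-gated cells (0) 1 with no gene filter. Replicate numbers did not pair the libraries, since the correlations of same-numbered deviations were 0.532, 0.723 and -0.356. With the replicate number as a block, 19 members were called in all cells, 8 in S-gated, 2 in double-gated and 0 in non-cycling cells, and 0 in the interaction. That fit left 1 residual degree of freedom in each label difference and called 17.0%, 7.51%, 11.2% and 0.198% of all genes tested, so its member counts are read beside those shares only.

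S-gated over non-cycling cells (8 higher, 9 lower) gave 3 higher with DESeq2, 4 with a stricter cell filter, 5 in list A alone, 5, 23 and 25 with gate minimums of 4 and 8 and gates at 2000 UMIs, and 4 to 8 leaving out 1 library. Lower members were 4 in list A alone and 4 to 9 leaving out 1 library. Double-gated against G2/M-gated cells gave 2 lower members in place of 4 with no gene filter, in list A alone and with a minimum of 4, and 2 to 4 leaving out 1 library. Lower members of list B were 10 to 16 leaving out 1 library, and 5 to 15 in double-gated cells. Leaving out KO3 or WT4 left 1 list B library, which was assumed to vary like the others.

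Granulocyte-monocyte gates in S-gated cells (6) gave 15 with a minimum of 8, 27 at 2000 UMIs, 16 with a lineage minimum of 5 and 4 to 8 leaving out 1 library. Lymphoid gates (0) gave 1, 2, 1 and 1 with a minimum of 4, a minimum of 8, 2000 UMIs and a lineage minimum of 5, and 0 to 1 leaving out 1 library. Stem gates (6) gave 10 with a lineage minimum of 5 and 3 to 7 leaving out 1 library. In double-gated cells the granulocyte-monocyte gate (1 higher, 3 lower) gave 0 higher with DESeq2, with a minimum of 8 and at 2000 UMIs, 3 with no gene filter, 2 with a stricter cell filter and with a minimum of 4, and 0 to 2 leaving out 1 library. It gave 1 lower with DESeq2, no gene filter, the stricter cell filter, minimums of 4 and 8 and a lineage minimum of 5, and 0 to 2 leaving out 1 library. The lymphoid gate (2) gave 1 with DESeq2, 7 in list A alone, 4 with a minimum of 4 and 1 to 3 leaving out 1 library. The stem gate (13) gave 7 with DESeq2, 6 with the stricter cell filter, 8 in list A alone, 21, 7 and 8 with minimums of 4 and 8 and at 2000 UMIs, 21 with a lineage minimum of 5, and 7 to 19 leaving out 1 library.

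The mean share of cells with a histone UMI was 66.51% at 2000 UMIs and 89.93% without thinning. The non-cycling values rest on 63 to 1143 cells per library, and the smallest G2/M-gated group held 59.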
